A study of Homo sapiens with 6 samples.

Results

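The insulin-like growth factor (IGF) receptors and IGF-binding proteins were taken as a set of 10 genes: the 7 binding proteins IGFBP1 to IGFBP7, the receptors IGF1R and IGF2R, and the ligand gene IGF2. They were picked by symbol from the 62696 genes of the count files, and each symbol matched 1 gene. Their levels in this same comparison were known when they were picked, so for these 10 genes levels and fold changes are given as a description, without p-values. How many of them pass the threshold used for all genes is given only beside the share of all genes that pass, and supports nothing.

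RNA-seq was done in DMS53, a small cell lung cancer (SCLC) line, in 6 libraries. The 3 control libraries came from cells transduced with the empty lentiviral vector pLenti-C-mGFP-P2A-Puro, and the 3 OC2-OE libraries from cells transduced with an mGFP-tagged clone of the transcription factor ONECUT2 (OC2), expressed constitutively. Both groups were selected with puromycin and grown in RPMI-1640 with serum and penicillin/streptomycin. The comparison asked which genes change when OC2 is enforced in a neuroendocrine tumour line. It rests on 1 cell line, and on cells carrying 1 vector against cells carrying the other. The study counts its RNA-seq runs as independent experiments, but whether each had a transduction of its own is not given in the sources used here.

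IGF ligands reach the cell in competition between receptors and soluble binding proteins. IGF1R is the tyrosine kinase receptor that carries the growth and survival signal, whereas IGF2R has no kinase, takes IGF2 up for degradation and carries mannose 6-phosphate-tagged enzymes to the lysosome. The secreted IGFBPs bind IGFs with high affinity (IGFBP7 with low affinity), hold them away from IGF1R or release them after cleavage by proteases, and have roles outside IGF binding as well. Autocrine IGF signalling is a known feature of SCLC lines.

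Library totals ran from 16533284 to 19099337 counts. ONECUT2 itself rose from between 394 and 465 counts per control library to between 68853 and 74031 per OC2-OE library (log2 fold change 7.32 ± 0.028, SE), with reads from the introduced clone and the cells' own gene counted together. Of 17307 genes tested with edgeR's quasi-likelihood test, 9776 passed a Benjamini-Hochberg adjusted p of 0.001, which is 56.5% of all genes tested. A call is therefore common in these data, and the size of a change says more than its call. The biological coefficient of variation estimated over all tested genes was 2.2%. Libraries of the same group differed little beyond counting noise, with a chi-square per degree of freedom of 1.32 to 2.06. Standard errors and p-values here thus measure the small spread between these libraries, not that between separately made cell lines. Of 8 neuroendocrine markers (CHGA, CHGB, SYP, INSM1, NCAM1, DLL3, SCG2 and SCG3), 2 were called higher and 5 lower in OC2-OE, and all 8 were detected in both groups.

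The binding proteins held the largest differences in the set. IGFBP5, IGFBP3 and IGFBP2 were abundant in control cells and were lower in OC2-OE by 33.9-fold, 8.62-fold and 3.01-fold. IGFBP1 was low in both groups and lower in OC2-OE by 3.98-fold. IGFBP6 had overlapping groups, and IGFBP4 and IGFBP7 had too few counts to test.

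IGFBP5 (chr2:216672105-216695549, minus strand, GRCh38) encodes a binding protein that attaches to extracellular matrix. It had 14529, 12897 and 12649 counts in control and 466, 371 and 414 in OC2-OE. As CPM (the share of a library's counts, scaled by edgeR's TMM factors), this was 776.3, 769.5 and 776.5 against 24.3, 21.4 and 22.7. The control libraries thus lay close together and far above every OC2-OE library. The means were 774 ± 4.03 and 22.8 ± 1.45 CPM (SD, n = 3 in each group), and on the log2 scale the fold change was -5.08 ± 0.033 (SE). Among the 11196 genes with a mean log2 CPM of at least 3, IGFBP5 had the lowest log2 fold change of all.

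IGFBP3 (chr7:45912245-45921874, minus strand), the main carrier of IGFs in blood, had 4458, 3842 and 3915 counts in control and 539, 477 and 483 in OC2-OE. Scaled, these were 238, 229 and 240.3 CPM against 28.1, 27.5 and 26.5 CPM, with no overlap. The log2 fold change was -3.11 ± 0.039, which placed it 24th from the lowest among the same 11196 genes. IGFBP2 (chr2:216632828-216664436, plus strand), a binding protein of fetal tissue and many tumours, had 2671, 2591 and 2449 counts in control and 1039, 821 and 859 in OC2-OE. That was 142.7, 154.6 and 150.3 CPM against 54.1, 47.3 and 47.1 CPM. Its groups were also apart, with a log2 fold change of -1.59 ± 0.040.

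IGFBP1 (chr7:45888360-45893660, plus strand), a liver product known for its acute regulation by insulin, had 46, 61 and 48 counts in control and 12, 20 and 9 in OC2-OE. Every control library was above every OC2-OE library, at 2.46 to 3.64 against 0.493 to 1.15 CPM, and the log2 fold change was -1.99 ± 0.27. These low counts give IGFBP1 the largest error of the 7 members tested. Of the 4 of 7 hepatocyte markers that could be tested, 1 was called higher and 1 lower, against 27.8% and 28.7% of all genes tested. The summed level of the list was 26.4 to 27.8 CPM in control and 56.3 to 61.8 CPM in OC2-OE. Most of that sum was SERPINA1, the alpha-1 antitrypsin gene, at 16.4 CPM in control and 49.7 in OC2-OE, whereas TTR, the transthyretin gene, was the lower one, at 4.22 and 0.644 CPM. Their part in the IGFBP1 values was not tested.

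IGFBP6 (chr12:53097436-53102345, plus strand), which prefers IGF2 over IGF1, had 56, 76 and 63 counts in control and 48, 56 and 58 in OC2-OE. The groups overlapped, with means of 3.80 ± 0.773 and 2.97 ± 0.406 CPM and a log2 fold change of -0.35 ± 0.18. IGFBP4 (chr17:40443450-40457725, plus strand), the substrate of the protease PAPPA, had 13, 12 and 5 counts against 6, 7 and 10. IGFBP7 (chr4:57030773-57110385, minus strand), the low-affinity member, had 7, 8 and 9 counts against 5, 10 and 3. The 3 libraries of a group held 30 and 23 counts of IGFBP4, a ratio of OC2-OE to control of 0.724 (95% interval 0.402 to 1.29), and 24 and 18 counts of IGFBP7, a ratio of 0.708 (0.362 to 1.36). Both intervals cover counting error only and include a ratio of 1.

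**Figure D1:**
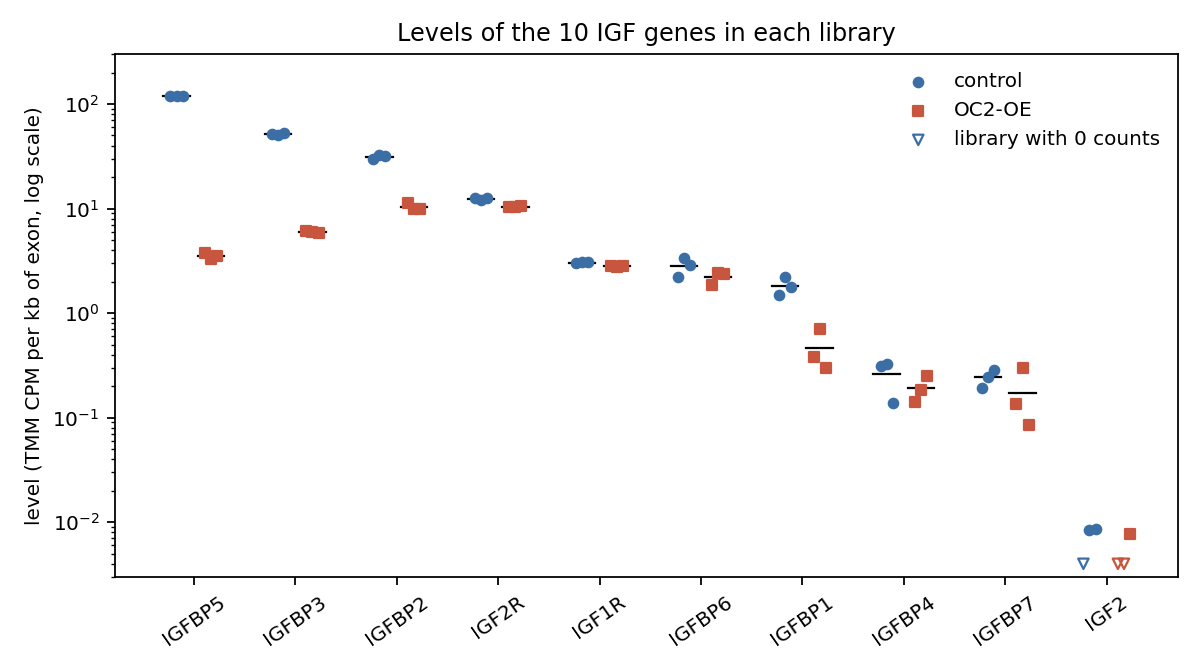
Level of each of the 10 genes in each library, in TMM-scaled CPM per kb of exon on a log axis; blue circles are control and red squares OC2-OE libraries, black lines are group means, and open triangles at the bottom are libraries with 0 counts. IGFBP5, IGFBP3 and IGFBP2 are the top 3 genes in control and drop below or to the level of IGF2R in OC2-OE, while both receptors move little.

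To set genes beside each other, levels were divided by exon length. That length counts every annotated exon of a gene, used in these cells or not, such as 4742 bases for IGFBP2 and 22613 for IGF2R. The order of genes therefore depends on the annotation. On this scale, control levels ran from IGFBP5 at 119.7 ± 0.624 CPM per kb through IGFBP3 at 51.6 ± 1.29 and IGFBP2 at 31.5 ± 1.27 to IGF2R at 12.4 ± 0.215. IGF1R, at 3.04 ± 0.057, and IGFBP6, at 2.82 ± 0.575, could not be put in order because their ranges overlapped, and the same held for IGFBP4 and IGFBP7. In OC2-OE the order at the top was a different one. IGFBP2, at 10.4 ± 0.846 CPM per kb, and IGF2R, at 10.4 ± 0.245, had overlapping ranges and stood first, above IGFBP3 at 5.98 ± 0.179, IGFBP5 at 3.52 ± 0.225 and IGF1R at 2.80 ± 0.043. IGFBP5 thus stood first in control and below IGFBP2, IGF2R and IGFBP3 in OC2-OE.

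The 7 binding-protein genes were also added up as a pool of transcripts. The summed level was 206.5, 207.9 and 209.5 CPM per kb in control and 23.8, 22.9 and 22.2 in OC2-OE, so that OC2-OE cells held 11.0% of the control sum. Without IGFBP5 the sum went from 88.3 ± 1.58 to 19.5 ± 0.689 CPM per kb, a 4.54-fold difference, so the lower pool did not rest on IGFBP5 alone. The make-up of the pool differed as well. IGFBP5 made up 57.6 ± 0.497% of the sum in control and 15.3 ± 0.763% in OC2-OE, and IGFBP2 made up 15.1 ± 0.553% and 45.4 ± 2.24%. The share of IGFBP3 was 24.8 ± 0.609% and 26.1 ± 0.252%, since its own difference was close to that of the pool as a whole. IGFBP6, whose own groups overlapped, had a share of 1.36 ± 0.272% in control and 9.63 ± 1.59% in OC2-OE. Set against the receptor they compete with, the summed IGFBP transcripts per kb were 68.3 ± 1.05 times the level of IGF1R in control and 8.21 ± 0.351 times in OC2-OE. The sum, the shares and this ratio all depend on the exon lengths used. In bulk RNA, fewer cells that express a gene and less RNA per cell cannot be told apart.

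**Figure D2:**
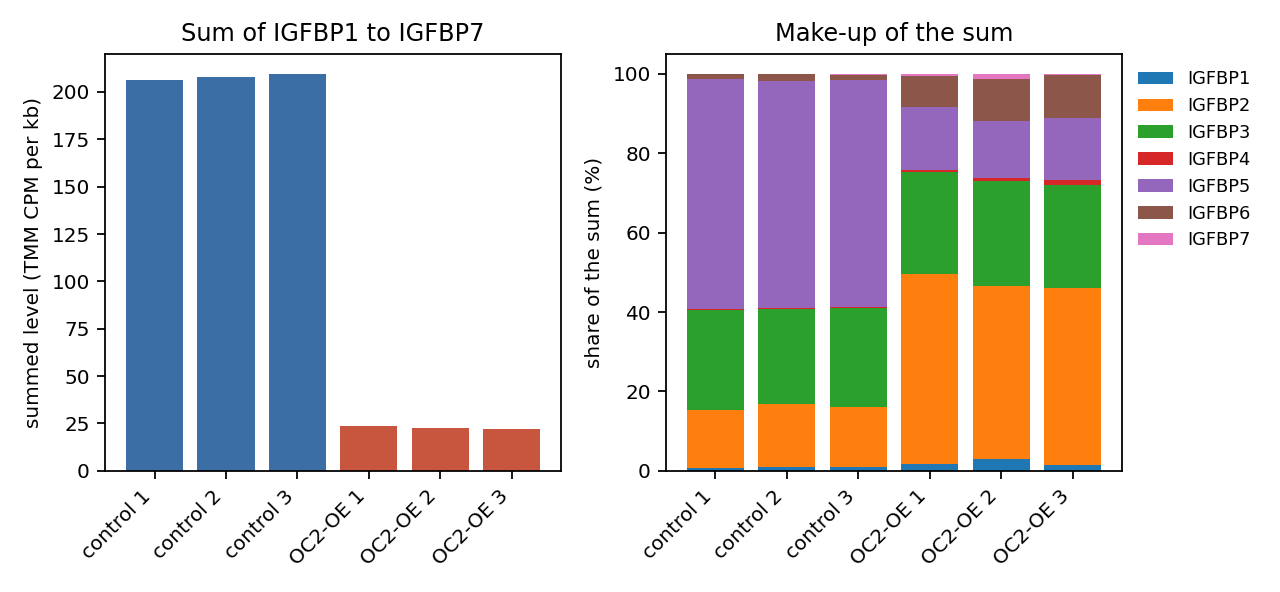
Left, the sum of the 7 binding-protein genes in each library in TMM-scaled CPM per kb of exon, blue for control and red for OC2-OE; right, the share of each gene in that sum in percent. The 3 OC2-OE libraries sit at 22.2 to 23.8 against 206.5 to 209.5 in control, and IGFBP2 takes the place of IGFBP5 as the largest share.

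The genes of 4 binding proteins lie in 2 tail-to-tail pairs. IGFBP1 and IGFBP3 sit on chromosome 7 with 18.585 kb between them, IGFBP2 and IGFBP5 on chromosome 2 with 7.669 kb between them, and the genes of each pair are transcribed towards each other. All 4 were lower in OC2-OE, but by different amounts within each pair: the log2 fold changes were -1.59 for IGFBP2 against -5.08 for IGFBP5, and -1.99 for IGFBP1 against -3.11 for IGFBP3. The libraries were stranded, so reads of facing genes were counted apart.

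The genes around the pairs did not share one direction. Within 500 kb of IGFBP2 and IGFBP5, 7 other genes were tested, of which 1 was called higher and 2 lower. The higher one, the unnamed gene ENSG00000279348, rose by 0.54 ± 0.13 on the log2 scale (adjusted p = 1.63e-04). SMARCAL1, a DNA translocase gene, had a log2 fold change of -0.10 ± 0.069 and was not called. ENSG00000279348, SMARCAL1 and RPL37A are given outside the naming rule stated below. RPL37A, a ribosomal protein gene, fell by 0.30 on the log2 scale (adjusted p = 2.38e-21), and the unnamed gene ENSG00000287498 fell by 2.24 ± 0.24 (adjusted p = 7.35e-15), from 3.73 to 0.788 CPM. Within 500 kb of IGFBP1 and IGFBP3, 3 other genes were tested, of which 1 was called higher and 1 lower. The lower one was ADCY1, an adenylyl cyclase, which fell by 1.19 ± 0.041 (adjusted p = 2.31e-53), from 109 to 47.7 CPM. Around all 10 genes, 46 of 75 neighbours were called (61.3%, against 56.5% of all genes tested), 21 higher and 25 lower.

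**Figure D3:**
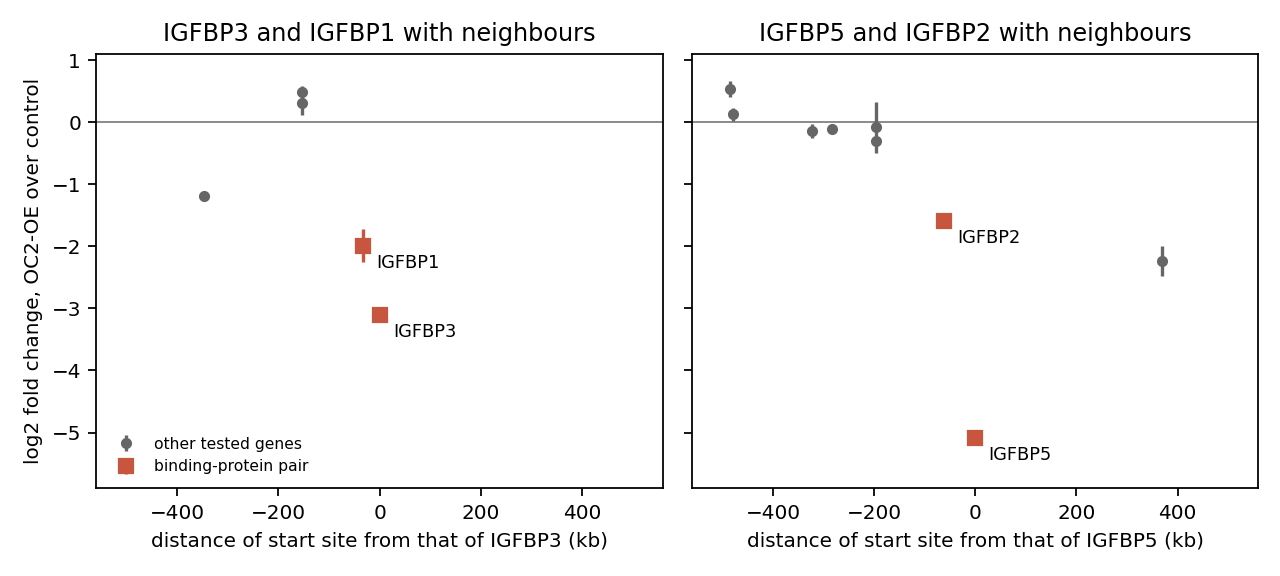
Log2 fold change (OC2-OE over control, bars are standard errors) against the distance between start sites in kb, for IGFBP3 and IGFBP1 on the left and IGFBP5 and IGFBP2 on the right; red squares are the pair and grey circles the other tested genes within 500 kb. In each panel both genes of the pair lie below 0, and the other genes lie on both sides of it.

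By the distance between the 6 mean-centred log2(CPM + 0.5) values, the gene whose pattern was closest to that of IGFBP5 was GRP, at a distance of 0.959. GRP encodes gastrin-releasing peptide, a neuropeptide and autocrine growth factor of SCLC, and its level was 132 CPM in control and 6.23 in OC2-OE. ENSG00000279930, at a distance of 1.16, and KCTD12, an auxiliary subunit gene of the GABA-B receptor, at 1.30, came next, with log2 fold changes of -4.17 and -4.01. These are the 3 closest of the genes with a mean log2 CPM of at least 3, over 6 libraries in 2 groups, so that closeness mostly expresses a like difference between the groups.

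The receptors differed far less than IGFBP1, IGFBP2, IGFBP3 and IGFBP5. IGF1R (chr15:98648539-98964530, plus strand) had 778, 723 and 694 counts in control and 750, 667 and 723 in OC2-OE, or 41.6, 43.1 and 42.6 CPM against 39.1, 38.4 and 39.6 CPM. The groups were apart by a small margin, at 42.4 ± 0.795 and 39.0 ± 0.594 CPM, with a log2 fold change of -0.12 ± 0.053. IGF2R (chr6:159969082-160113507, plus strand) had 5294, 4613 and 4630 counts in control and 4458, 4019 and 4407 in OC2-OE. Its levels were 283, 275 and 284 CPM against 232, 232 and 241 CPM, a log2 fold change of -0.26 ± 0.026, small but well outside the spread of either group. Per kb of annotated exon, IGF2R transcripts were 4.08 ± 0.134 times as abundant as IGF1R transcripts in control and 3.71 ± 0.047 times in OC2-OE.

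IGF2 (chr11:2129112-2158391, minus strand), the fetal ligand that both receptors bind, was near absent, with 0, 1 and 1 counts in control and 0, 0 and 1 in OC2-OE, and no fold is given. Of the 10 genes, 7 could thus be tested. Of these, 5 passed the adjusted p of 0.001 (56.5% of all genes), all lower in OC2-OE (IGFBP1, IGFBP2, IGFBP3, IGFBP5 and IGF2R), 0 were called higher, and IGFBP6 and IGF1R did not pass. Of all genes tested, 28.7% were called lower and 27.8% higher. The control and OC2-OE libraries did not overlap for 6 of the 7, against 73.2% of all genes. At an adjusted p of 0.05, 6 of the 7 passed, IGF1R being added, against 71.4% of all genes. Lower by at least 1 on the log2 scale as well as past 0.001 were 4 of the 7, against 9.04% of all genes. The median log2 fold change was -1.59 over the 7 and 0.01 over all genes tested, and since this comparison chose the genes, nothing is read from these counts.

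The start regions of the main members are shown because IGFBP5, IGFBP3 and IGFBP2 differed together while the receptors moved little. Promoter windows from RefSeq (GRCh38.p14, 250 bases before to 50 after a start) were matched by symbol for 7 of the 10 genes, with 9 windows in all. IGFBP1, IGFBP7 and IGF2 had no match, so the start region of IGFBP1, also lower in OC2-OE, was not examined. The last 100 bases before the start are printed 5′ to 3′ on the gene's strand, with a match to a TATA-like run (TATAAA, or TATATA, or else TATTTA) in the last 50 bases in capitals. The windows are IGFBP5 at chr2:216695550-216695649 (minus strand), IGFBP3 at chr7:45921273-45921372 (minus strand), IGFBP2 at chr2:216633320-216633419 (plus strand, the middle of 3 listed starts), IGF1R at chr15:98648439-98648538 (plus strand) and IGF2R at chr6:159968982-159969081 (plus strand).
IGFBP5: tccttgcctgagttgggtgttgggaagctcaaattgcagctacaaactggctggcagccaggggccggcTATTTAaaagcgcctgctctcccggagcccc
IGFBP3: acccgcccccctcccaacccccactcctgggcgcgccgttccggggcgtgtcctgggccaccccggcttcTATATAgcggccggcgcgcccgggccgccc
IGFBP2: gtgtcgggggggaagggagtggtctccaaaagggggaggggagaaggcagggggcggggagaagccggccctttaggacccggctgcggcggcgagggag
IGF1R: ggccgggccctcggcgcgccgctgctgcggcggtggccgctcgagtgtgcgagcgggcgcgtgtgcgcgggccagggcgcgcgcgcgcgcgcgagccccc
IGF2R: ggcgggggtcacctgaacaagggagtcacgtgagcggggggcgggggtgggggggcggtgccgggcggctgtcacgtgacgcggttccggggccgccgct

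Of these 5 genes, IGFBP5 and IGFBP3 have such a TATA-like run in that stretch. IGFBP4, which is not printed and was barely expressed, has one too. Over all 35116 windows of the RefSeq table, 4.60% hold one there on the given strand. This search was added after the values were seen, and a link between such runs and the fold changes was not tested. ATCGAT and ATCAAT, the core letters that cut-homeodomain factors such as ONECUT2 are known to bind, were looked for on both strands of the whole windows. Neither was found in any of the 9 windows of the 7 genes, against 0.763% of all windows with ATCGAT and 6.26% with ATCAAT. That says only that these letters are not in these windows. The GC content was 59.0% for IGFBP5, 74.7% for IGFBP3, 70.0% for the printed IGFBP2 window (55.3% and 56.7% at its other starts), 79.7% for IGF1R and 78.7% for IGF2R, with a median of 58.7% over all windows.

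Around the set, 8 lists of genes that act with it were tested, 99 genes counted once, of which 86 could be tested. Of these 35 were called higher and 20 lower in OC2-OE (64.0% called, against 56.5% of all genes), and the median log2 fold change was 0.10. The list of other ligands and receptors had 3 of 5 genes tested, with 0 higher and 1 lower. That gene was IGF1, the ligand of IGF1R, at 36.7, 36.3 and 36.2 CPM in control and 8.23, 6.80 and 7.34 CPM in OC2-OE. IGF1 fell by 2.28 ± 0.079 on the log2 scale (adjusted p = 2.61e-53) and was the main IGF ligand transcript of these cells, since IGF2 was near absent and INS (insulin) had 0 counts in control and 1 in OC2-OE. The insulin receptor gene INSR was at 47.5 ± 2.51 and 50.3 ± 1.64 CPM, a log2 fold change of 0.08 ± 0.049 that was not called (adjusted p = 0.133).

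Of the IGFBP proteases and their inhibitors, 11 of 13 were tested, with 7 higher and 2 lower and a median log2 fold change of 0.51. The share called was 81.8%, against 56.5% of all genes tested (27.8% higher and 28.7% lower). STC2, stanniocalcin 2, which blocks PAPPA, rose from 55.5 ± 3.26 to 193 ± 0.471 CPM, a log2 fold change of 1.80 ± 0.036 (adjusted p = 3.83e-78). CTSD, a lysosomal protease that also cleaves IGFBPs, rose by 1.14 (adjusted p = 1.71e-62), and HTRA1, a secreted serine protease, fell by 0.77 (adjusted p = 7.61e-16). PAPPA itself was low, at 3.73 ± 0.636 and 2.47 ± 0.726 CPM, and its log2 fold change of -0.59 was not called (adjusted p = 0.00385), but passed without OC2-OE replicate 3 (-0.82, adjusted p = 0.000814, the lowest of a range up to 0.0665 over the alternatives). C1S, a complement protease that cleaves IGFBP5, rose from 2.43 to 4.11 CPM (0.76, adjusted p = 9.98e-05). It did not pass without control replicate 3 (adjusted p = 0.00212) or OC2-OE replicate 1 (0.00308), or by DESeq2's Wald test (0.00253), in a range of 3.91e-05 to 0.00308. MMP7, a matrix metalloproteinase that cleaves IGFBPs, had 0 counts in all control libraries and 55, 53 and 44 in OC2-OE, at least 47.9-fold higher against a floor of 3 counts over the group. It was singled out after its values were seen.

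Of the genes for proteins related to IGFBPs by their N-terminal module, 8 of 13 were tested, with 2 higher and 4 lower and a median of -0.42. The share called was 75%, against 56.5% of all genes tested (27.8% higher and 28.7% lower). CRIM1, a membrane protein that binds BMPs, rose by 1.38 ± 0.050 (29.1 to 75.8 CPM, adjusted p = 1.16e-51). IGFBPL1, an IGFBP-like protein, fell by 1.20 ± 0.039 (131 to 57.2 CPM, adjusted p = 1.14e-56), CCN1, a matricellular protein, fell by 0.97 (adjusted p = 1.09e-07), and HTRA1 is on this list too. The list of surface and matrix partners of IGFBPs, which also holds the nuclear receptor gene RXRA, was chosen with earlier results known. All 9 of its genes were tested, with 7 higher and 1 lower, against 27.8% and 28.7% of all genes tested, and a median of 1.61. ITGAV, the integrin alpha-V subunit, rose from 233 to 708 CPM (1.61, adjusted p = 1.49e-93), and ITGA5, the integrin alpha-5 subunit of the fibronectin receptor that binds IGFBP1, rose from 17.4 to 61.1 CPM (1.82, adjusted p = 1.20e-56). VTN, the matrix protein vitronectin, and RXRA, a nuclear receptor that binds IGFBP3, rose by 1.94 and 1.92 from low levels of 1.48 and 1.45 CPM. The lower gene, named after its values were seen, was FN1, which encodes fibronectin and fell by 1.52 (6.07 to 2.13 CPM, adjusted p = 1.89e-14).

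Downstream of the receptors, the shares called were 46.2% of the substrates and adaptors and 57.1% of the PI3K, AKT and mTOR arm, against 56.5% of all genes tested (27.8% higher and 28.7% lower). Of 13 receptor substrates and adaptors, all tested, 3 were higher and 3 lower, with a median of -0.07. IRS2, a docking protein of the insulin and IGF1 receptors, fell from 136 ± 6.26 to 65.0 ± 3.28 CPM (log2 fold change -1.07 ± 0.038, adjusted p = 2.31e-50), while the related IRS1 rose from 6.98 ± 0.318 to 10.3 ± 1.08 CPM (0.56 ± 0.11, adjusted p = 3.23e-06). IRS4 fell by 0.72 (adjusted p = 2.73e-06), and GRB10, an adaptor that dampens receptor signalling, rose by 0.68 (adjusted p = 9.53e-22). The PI3K, AKT and mTOR arm had 21 of 22 genes tested, 6 higher and 6 lower, with a median of -0.05. RPTOR, a scaffold of mTOR complex 1, fell by 1.01 (adjusted p = 4.04e-56), whereas PIK3CA, a catalytic PI3K subunit, rose by 0.85 (adjusted p = 4.92e-34) and the forkhead factors FOXO4 and FOXO3 rose by 0.75 and 0.74.

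**Figure D4:**
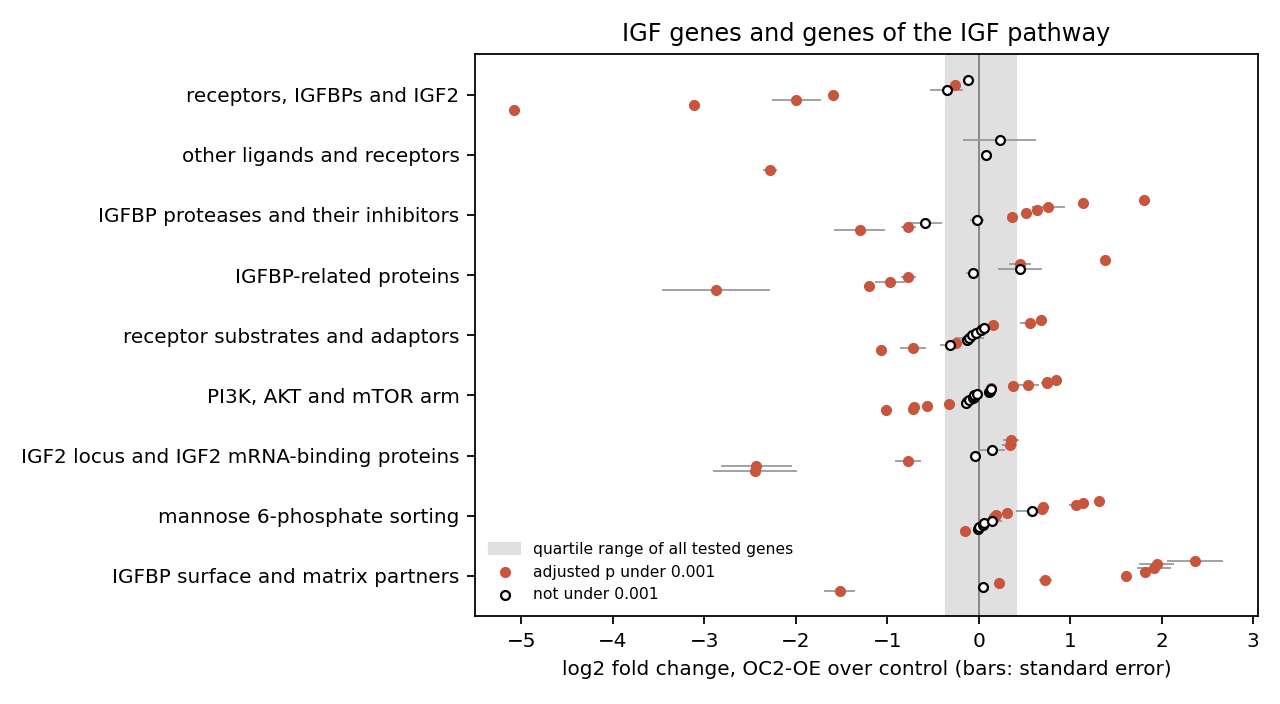
Log2 fold change (OC2-OE over control, bars are standard errors) of each tested gene of the set and of the 8 lists; red points have an adjusted p under 0.001, open points do not, and the grey band holds the tested genes between the quartiles. MMP7, with 0 counts in control, is not drawn. IGFBP5, IGFBP3, IGFBP1 and IGFBP2 lie left of -1.5, and most surface and matrix partners lie right of 0.

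The genes of the IGF2 locus and of the IGF2 mRNA-binding proteins were near silent in part. H19, the imprinted non-coding RNA beside IGF2, had 18, 15 and 20 counts in control and 2, 4 and 4 in OC2-OE (log2 fold change -2.44 ± 0.46, adjusted p = 1.25e-06). IGF2BP1 had 1 count in control and 0 in OC2-OE. IGF2BP3 was at 158 ± 6.27 and 154 ± 1.34 CPM, not called, with a log2 fold change of -0.04 that became 0.014 when libraries were scaled by their totals alone. IGF2BP2 rose from 14.5 ± 1.53 to 18.4 ± 0.688 CPM (0.34, adjusted p = 1.17e-04). That call was lost without control replicate 3 (adjusted p = 0.00682) or OC2-OE replicate 2 (0.00153) and by DESeq2's Wald test (0.00271), in a range of 1.27e-05 to 0.00682. Of the 7 of 10 genes tested on this list, 2 were higher and 3 lower, with a median of -0.04. That was 71.4% called, against 56.5% of all genes tested (27.8% higher and 28.7% lower). LIN28B, an RNA-binding protein that favours growth, fell by 0.77 (adjusted p = 5.19e-07). PLAGL1, an imprinted zinc finger gene, rose by 0.35 (adjusted p = 2.59e-04), but not past the threshold without control replicate 2 (0.00546), control replicate 3 (0.00272) or OC2-OE replicate 3 (0.00594), or by DESeq2's Wald test (0.00470), in a range of 3.61e-05 to 0.00594.

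IGF2R shares its sorting work with the smaller receptor M6PR, and 16 genes of mannose 6-phosphate sorting were tested. Of these 9 were higher and 1 lower (62.5% called), with a median of 0.17. Over all genes tested 56.5% were called, 27.8% higher and 28.7% lower. Among the cargo enzymes, CTSD rose by 1.14 (adjusted p = 1.71e-62), and CTSL, a cysteine protease, rose by 1.07 (adjusted p = 2.12e-25). GNPTG, a subunit of the enzyme that makes the mannose 6-phosphate tag, rose by 0.70 (adjusted p = 1.38e-21). IGF2R itself was slightly lower, as given above.

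Markers of other cells that make IGFBPs were looked at beside these values. The summed level of 6 fibroblast markers was 21.1 to 23.8 CPM in control and 28.1 to 32.1 CPM in OC2-OE. Most of that sum was COL1A1, at 21.5 CPM in control and 27.8 in OC2-OE. Of the 6, 3 could be tested and 2 were higher, and DCN, LUM and COL3A1 had at most 6 counts in any group. The 4 endothelial markers summed to 12.71 to 14.98 CPM in control and 4.16 to 4.72 CPM in OC2-OE, with 2 of the 3 tested lower. Most of the control sum was KDR, at 10.6 CPM in control and 1.55 in OC2-OE. PECAM1 was not called, at 2.39 and 2.46 CPM, and VWF, not tested, had 1 count in control and 17 in OC2-OE. The part of the fibroblast and endothelial markers in the IGFBP values was not tested. The 5 leukocyte markers summed to under 3 CPM in every library, with CD3E at 0 counts throughout, PTPRC at 0 counts in control and 3 in OC2-OE, and the 1 marker tested (LYZ) higher. Over all genes tested, 27.8% were called higher and 28.7% lower.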

How the data were processed

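Poly(A) RNA of 3 control and 3 OC2-OE cultures was sequenced with a stranded kit. The authors aligned the reads with STAR 2.7.9a and counted read pairs per gene with featureCounts 1.6.0 on GENCODE release 42 (GRCh38, reverse-stranded), and the deposited values are raw counts, of which 16533284 to 19099337 fell in each library. Here genes were filtered with filterByExpr, scaled by TMM and tested with the quasi-likelihood F-test of edgeR 4.0.16 (limma 3.58.1, R 4.3.3) without covariates, with Benjamini-Hochberg adjustment over 17307 genes and a threshold of 0.001. CPM per kb used the exon length in the count files, which covers all annotated exons of a gene. Alternatives were DESeq2 1.42.0, other scalings, count filters, thresholds, a replicate term, leaving out ONECUT2 and leaving out each library.

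The 10 genes, the pathway and marker lists and the rule for naming genes were chosen with earlier results of these data known. The rule named all 10 genes, 11 IGF genes whatever their values, the 4 largest called changes with a mean log2 CPM of at least 1 on each other list, called neighbours of the pairs changed by at least 1, and the 3 genes closest to IGFBP5. A gene that the rule names on the sorting list is not reported here. Intervals of count ratios are exact binomial and cover counting error only.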

Additional observations from a re-analysis of the deposited data

How the results depend on the processing

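The fold changes of the 7 tested members kept their sign under every alternative run (DESeq2, other scalings, count filters, a replicate term, without ONECUT2, without each library). Their log2 fold changes ranged from -2.40 to -1.76 for IGFBP1, -1.65 to -1.54 for IGFBP2, -3.13 to -3.06 for IGFBP3, -5.13 to -5.03 for IGFBP5, -0.51 to -0.20 for IGFBP6, -0.14 to -0.07 for IGF1R and -0.27 to -0.21 for IGF2R. Of the members, 4 passed with at least 10 counts in every library, since IGFBP1 was then not tested, 4 with a log2 fold change of at least 1 and 6 at an adjusted p of 0.05. With a log2 fold change of at least 1 asked for, 2999 genes were called in place of 9776 (1435 higher, 1564 lower), 20 pathway genes in place of 55 and 17 neighbours in place of 46. Scaled by library totals alone, 5337 genes were called higher and 4426 lower (4810 and 4966 with TMM), 24 neighbours higher and 24 lower (21 and 25 with TMM), the IGFBP pool in OC2-OE was 11.4% of control in place of 11.0%, and IGF2BP3 turned from -0.04 to 0.014. Pathway genes were 39 higher and 18 lower with that scaling (35 and 20 with TMM). Leaving out each library in turn gave 8944 to 9341 genes, 5 members, 47 to 53 pathway genes, 41 to 45 neighbours and 10.8% to 11.2% for the pool. DESeq2's Wald test called 8385 genes (4063 higher, 4322 lower), 5 members, 47 pathway genes (27 higher, 20 lower) and 41 neighbours. Deviations of same-numbered libraries from their group means had correlations of -0.00078, 0.018 and 0.013. Those of differently numbered libraries had -0.016 to 0.0033. Since libraries of a group differed little beyond counting noise, a pairing by number might not show here, and none is concluded or excluded. With the replicate block 9642 genes, the same 5 members, 55 pathway genes (54 of them shared) and 46 neighbours were called. Of 599 values of single genes under an alternative, 587 kept sign and side of the threshold, 10 lost the call, 1 gained it and 1 turned. Counts under about 30 over a group limit IGFBP4, IGFBP7 and IGF2.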
